A study of Mus musculus with 4 samples.

Results

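The mRNAs of proteasome subunits were measured in sorted cells of mouse fetal liver and of adult mouse bone marrow. The genes are the 42 labels of the deposited table, of 33465 in all, whose symbols name a subunit of the 20S core (Psma and Psmb), an ATPase of the 19S regulatory particle (Psmc), another 19S subunit or 19S assembly factor (Psmd), or an activator of the core (Psme). Most of them were higher in fetal liver. By the authors' deposited table, 24 of the 42 had an adjusted p under 0.05 with the higher mean in fetal liver, against 4.12% of all 35605 tested features, and 0 were called lower, against 0.129%. Among features with a mean of at least 10 normalized reads these shares were 8.86% and 0.224%. Over the 34 subunits whose label could be placed again, the median was 4.60-fold higher by the means of the authors' deposited table. That placement, described below, used the direction of the difference. A model blind to direction gave most called subunits another most probable feature. The inducible catalytic subunit Psmb8 had the opposite direction and was not called.

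All 4 libraries came from C57BL/6 mice, 2 from fetal liver and 2 from adult bone marrow, and were made with a low-input SMARTer kit from primary cells sorted by FACS. The series concerns the hematopoietic stem cell niche of fetal liver portal vessels, and its design text names the transcriptomes of the fetal liver and adult bone marrow niche as the subject. No genotype, fetal age, adult age or sort marker is given in the sources used here, and whether each library is a different animal is not stated. A p-value here therefore reflects no more than the spread among these 4 samples, which may be technical. The group means could be split into the reads of each library, and within a group the libraries are named deeper and shallower, since replicate numbers cannot be assigned to them.

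The proteasome degrades proteins that carry ubiquitin chains. Its barrel-shaped core is built of outer alpha rings, which gate the entry, and inner beta rings, which hold the proteolytic sites. The 19S particle caps the core: its base, with a ring of ATPases, unfolds substrates, and its lid removes ubiquitin. In cells exposed to interferon gamma and in many blood cells, the catalytic subunits are exchanged for the inducible Psmb8, Psmb9 and Psmb10, which form the immunoproteasome. When proteasome activity falls short, the transcription factor NFE2L1 raises the subunit genes together through antioxidant response elements.

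Labels and values of the deposited table are out of step, so each gene label was placed again on the sorted features, as described with the processing. The model behind it saw gene structure, both group means, their ratio and the difference between the libraries of each group. The direction of a difference therefore took part in the placement, as did differences within a group. Of the 42 subunits, 34 were placed with a posterior of at least 0.95, and 8 had several candidate features. The 34 labels had moved by 6 to 1879 features. A model blind to direction, added after seeing the data, placed 13 subunits, 10 of them on the same feature. All of these 10 were not called in the authors' deposited table. Psmc6, Psma2 and Psmd6 were placed elsewhere. For subunits called in the authors' deposited table, its posterior of the main feature ran from 1.23e-25 (Psmc6) to 0.924 (Psmd7). The blind model gave 23 subunits higher and 0 lower by the authors' deposited table, and 33 higher by limma, the second test described below. Of its 13 placed subunits, 11 had both fetal liver libraries above both bone marrow libraries. Among 39 genes known to be abundant in many cells, listed after the data were seen and lying above the last called subunit, 27 were placed among the 5 highest fetal liver means of the 50 features from their label on. This was 12 under the blind model and 6 for labels as they stand. The main model saw the fetal liver mean itself and the blind model only the mean over both groups, so these counts describe the placements and are no independent test of them. The calls thus moved less between the models than the values of single called subunits did. This was largely fixed in advance, since features are sorted by p-value and every model kept the order of the labels. A label near the top falls on called features wherever it is placed nearby, and 1467 called features were higher and 46 lower. Labels as they stand gave 25 subunits higher, so these counts do not test the placement. Psmb9 has no label and was not analysed here. Every value below belongs to the feature on which the label was placed, and the calls by the authors' test count all 42 genes, because for each of the 8 others the candidates fell on 1 side of the threshold. By limma this held for 7 of the 8, and Psmb11 was undecided.

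The libraries held 858720 and 223361 recovered reads in bone marrow and 2546089 and 868246 in fetal liver, in features with means up to 10000. The placed subunits had 1171 (deeper) and 398 (shallower) reads in bone marrow, and 11731 and 4228 reads in fetal liver. This was 0.136% (95% Wilson interval 0.129 to 0.144) and 0.178% (0.162 to 0.197) of recovered reads in bone marrow. It was 0.461% (0.453 to 0.469) and 0.487% (0.473 to 0.502) in fetal liver, above both bone marrow libraries. The intervals cover counting error only. Reads in 340 placed olfactory receptor genes, which sorted cells of either organ are not known to need and which were picked as a background after the data were seen, went the other way: they took 0.334% and 0.246% in bone marrow and 0.103% and 0.0959% in fetal liver. Their part in the differences of the subunits was not tested. Both shares are sums over labels placed with a score that saw the group means and their ratio. Of 892 olfactory receptor labels, 340 were used. How far the placement shaped these shares was not tested. In bulk samples, fewer cells of a type and less RNA per cell cannot be told apart.

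**Figure D1:**
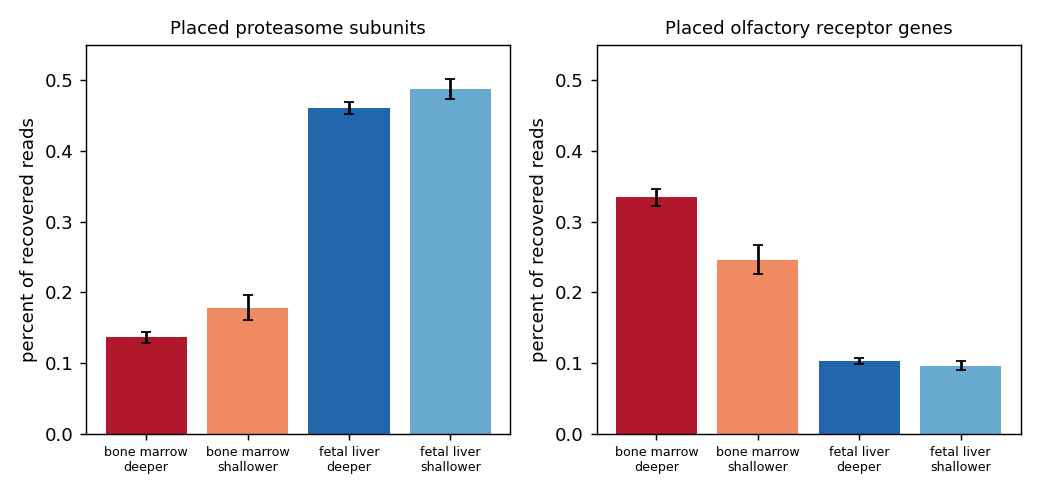
Percent of recovered reads in the placed proteasome subunits (left) and in placed olfactory receptor genes (right) in each of the 4 libraries, with 95% Wilson intervals as bars. The subunits lie between 0.136% and 0.178% in bone marrow and between 0.461% and 0.487% in fetal liver, while the olfactory receptor genes are higher in bone marrow. Both sets were placed by the model that saw the group means and their ratio.

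Hepatoblast markers were found in the fetal liver libraries. The summed level of the 5 placed markers of 6 was 64.2 and 54.3 normalized reads in bone marrow and 669 and 642 in fetal liver, and 3 of the 6, Alb, Afp and Apoa2, were called higher in the authors' deposited table. The 7 neutrophil markers summed to 416 and 117 in bone marrow and to 33.7 and 41.6 in fetal liver, and S100a9 was called lower in the authors' deposited table. Of 8 stromal markers, the 6 placed ones summed to 569 and 4455 in bone marrow and to 3473 and 6632 in fetal liver. Most of this was Col1a2, and the other 5 summed to 232 and 269 in bone marrow and 749 and 954 in fetal liver. Pdgfrb and Cxcl12 were called higher in the authors' deposited table. Lepr went the other way, at 38.5 and 34.3 in bone marrow and 29.2 and 15.5 in fetal liver, and was not called. General blood cell markers (5 placed of 6) summed to 126 and 91.5 in bone marrow and 76.2 and 69.0 in fetal liver, and endothelial markers (4 placed of 5) to 136 and 85.8 against 113 and 115. Macrophage markers summed to 130 and 62.9 against 82.2 and 48.8, erythroid markers (3 placed of 5 with a label) to 31.1 and 14.3 against 49.6 and 45.2, and lymphocyte markers (2 placed of 5) to 32.4 and 14.3 against 8.34 and 7.13. No gene of these last 5 lists was called in the authors' deposited table, and limma called only the endothelial gene Emcn, as higher. Of the endothelial genes not called, Pecam1 was lower, at 32.4 and 25.7 in bone marrow and 12.9 and 4.76 in fetal liver. Cdh5 was higher, at 23.0 and 14.3 against 44.3 and 35.7. How far any of these cells contribute to the subunit levels was not tested.

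The sequence before the start is shown for 4 subunit genes. Psmc6 had the lowest adjusted p of the subunits, Psmb5 and Psmb8 are an exchangeable pair of catalytic subunits, and Psmd11 differed least of the placed ones. The sequences are the 250 bases upstream of the RefSeq start on GRCm38.p6, written 5′ to 3′ on the gene's strand. Capitals mark the match to the motif TGACNNNGC of the antioxidant response element in Psmc6 (chr14:45329574-45329823, plus strand) and Psmb5 (chr14:54617996-54618245, minus strand). In Psmb8 (chr17:34197945-34198194, plus strand) they mark the STAT motif TTCNNNGAA, and in Psmd11 (chr11:80428365-80428614, plus strand) the ETS motif CCGGAAG.
Psmc6: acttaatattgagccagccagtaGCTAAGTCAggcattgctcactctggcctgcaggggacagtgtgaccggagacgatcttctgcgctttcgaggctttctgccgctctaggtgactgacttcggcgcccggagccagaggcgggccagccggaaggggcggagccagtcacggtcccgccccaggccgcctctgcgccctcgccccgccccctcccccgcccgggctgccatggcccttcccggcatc
Psmb5: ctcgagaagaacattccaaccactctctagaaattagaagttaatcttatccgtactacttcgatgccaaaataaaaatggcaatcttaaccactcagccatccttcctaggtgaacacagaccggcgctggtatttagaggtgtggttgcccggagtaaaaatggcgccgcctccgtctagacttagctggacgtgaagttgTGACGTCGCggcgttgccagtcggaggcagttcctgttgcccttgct
Psmb8: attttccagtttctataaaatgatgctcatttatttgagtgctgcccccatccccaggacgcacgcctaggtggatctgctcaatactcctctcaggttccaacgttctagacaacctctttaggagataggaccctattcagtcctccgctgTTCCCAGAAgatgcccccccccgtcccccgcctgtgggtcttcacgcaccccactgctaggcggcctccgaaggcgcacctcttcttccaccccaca
Psmd11: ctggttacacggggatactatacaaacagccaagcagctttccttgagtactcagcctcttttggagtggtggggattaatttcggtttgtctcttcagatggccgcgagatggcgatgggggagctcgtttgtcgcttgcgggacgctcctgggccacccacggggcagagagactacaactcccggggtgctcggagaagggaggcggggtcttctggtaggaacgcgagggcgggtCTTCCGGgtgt

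The capitals lie 227 bases before the start in Psmc6, 47 in Psmb5, 97 in Psmb8 and 11 in Psmd11, counted from the first printed base of the match. In Psmc6 and Psmd11 the capitalized motif reads on the opposite strand. Not every match is in capitals: Psmc6 also holds the ETS motif CCGGAAG, and Psmc6 and Psmd11 both hold the Sp1 motif GGGCGG. The ETS motif is therefore no contrast between Psmc6 and Psmd11. RefSeq promoters were matched for 35 of the 42 subunits, and both strands of the same 250 bases were searched. The antioxidant response motif was found in 14.3% of them, in Psmc6, Psmb5, Psmb6, Psmd9 and Psmd12, and in 10.1% of 27025 promoters of all genes. CCGGAAG was found in 28.6% against 7.05%, the palindromic motif of nuclear respiratory factor 1 in 17.1% against 3.86%, and the Sp1 motif GGGCGG in 57.1% against 32.9%. The NF-Y motif CCAAT was in 37.1% against 34.5%, the CREB motif TGACGTCA in 0% against 1.62%, and the STAT motif in 2.86%, Psmb8 alone, against 7.18%. The ETS, Sp1 and nuclear respiratory factor 1 motifs are rich in C and G, base composition was not matched, and a match is a description of letters only.

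**Figure D2:**
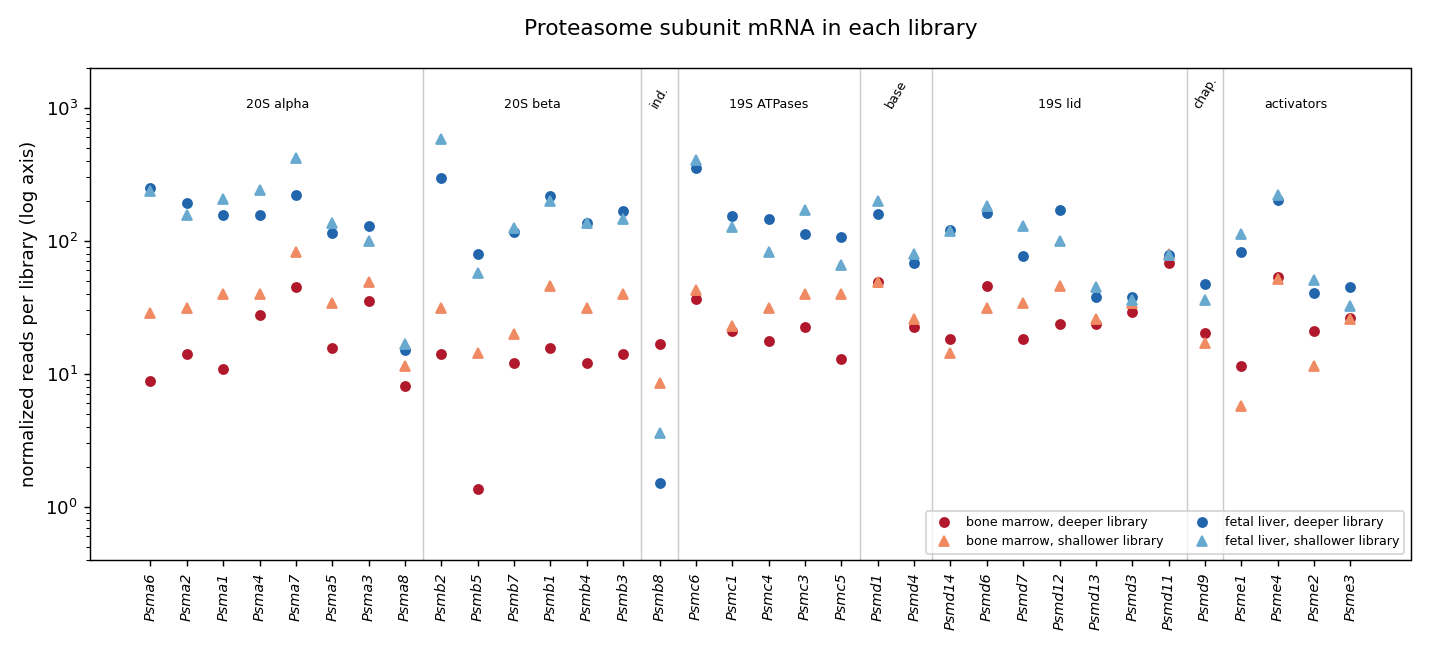
Normalized reads (log axis) of the 34 placed subunits in each library, ordered by subcomplex and, within it, by the ratio of fetal liver to bone marrow; "ind." is the inducible beta subunit, "base" the non-ATPase subunits of the 19S base and "chap." a 19S assembly chaperone. In 32 genes both fetal liver libraries lie above both bone marrow libraries, in Psmd11 they overlap, and in Psmb8 both lie below.

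Because direction took part in the placement, counts of direction over the placed subunits are a description. In 32 of the 34 placed subunits each fetal liver library exceeded each bone marrow library, against 37.3% of features with a mean of at least 10 normalized reads. The fetal liver mean was the higher one in 33 of the 34, against 53.6% of such features. The libraries overlapped in Psmd11, and in Psmb8 both fetal liver libraries lay below, as in 26.4% of such features. A second test, limma on log2(normalized reads + 1) of the recovered reads with Benjamini-Hochberg adjustment, called 33 of the 42 higher and 0 lower, against 19.2% and 2.87% of 16501 features. Psmb11 was undecided, since the more probable of its 2 candidates was called lower and the other was not called. All 24 subunits called in the authors' deposited table were among the 33. The 27 placed ones among these had limma log2 fold changes from 1.42 to 4.23, with standard errors of 0.39 to 0.72. The median log2 ratio, log2((fetal liver mean + 1) / (bone marrow mean + 1)), was 2.16 over the placed subunits and 0.11 over all 16526 features with a mean of at least 10. For low genes the added 1 makes the ratio smaller. Scaling to total recovered reads in place of the authors' size factors moved the median of all features by -0.69, to -0.58, and the subunits' median to 1.48.

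The alpha ring subunits, which form the outer rings and the gate, had higher means in fetal liver in all 8 cases, and all but Psma8 were called by at least 1 of the tests. By the authors' deposited table, 5 of 8 were called higher, and limma called 7. Their median log2 ratio was 2.41. Psma6 had 8.78 and 28.6 normalized reads in the deeper and shallower bone marrow library and 248 and 237 in fetal liver. Each fetal liver value was above 8 times the shallower bone marrow value, and the bone marrow libraries differed from each other by more than the fetal liver libraries did. The fold was 13.0 with an adjusted p of 0.000548 by the authors' deposited table, and limma with Benjamini-Hochberg adjustment gave a log2 fold change of 3.84 ± 0.48 (SE, 2 libraries a group). Leaving out the deeper or the shallower bone marrow library gave a fold of 8.47 or 27.6.

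Psma7 had the highest level per kilobase of transcript among the alpha subunits in both groups, with 69.8 normalized reads per kb in bone marrow and 350 in fetal liver. Its libraries stood at 44.6 and 82.9 in bone marrow and 222 and 417 in fetal liver, so each pair spread by about the same factor without overlap. The authors' deposited table gave a fold of 5.01 and an adjusted p of 0.0380. Psma2 (14.2 and 31.5 in bone marrow, 192 and 157 in fetal liver), Psma4 (27.7 and 40.03, 156 and 241) and Psma5 (15.5 and 34.3, 115 and 136) were also called, with folds of 7.64, 5.87 and 5.02 in the authors' deposited table. In all 3 the higher bone marrow library was the shallower one.

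Psma1 lay just outside the authors' threshold. Its libraries had 10.8 and 40.03 normalized reads in bone marrow and 157 and 205 in fetal liver, a fold of 7.12 with an adjusted p of 0.0504 by the authors' deposited table. The groups did not overlap, and limma with Benjamini-Hochberg adjustment gave 3.03 ± 0.51 with an adjusted p of 0.00048. Without the deeper bone marrow library the fold was 4.52, and without the shallower one 16.7. Psma3 rose less in limma, by 1.42 ± 0.40 on the log2 scale (Benjamini-Hochberg adjusted p 0.0177), from 35.1 and 48.6 to 128 and 98.7 normalized reads. It was not called in the authors' deposited table, with a fold of 2.71 and an adjusted p of 0.117.

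Psma8 is the alpha subunit of the proteasome of male germ cells, where it takes the place of Psma7. It was low in every library, with 8.11 and 11.4 normalized reads in bone marrow and 15.2 and 16.6 in fetal liver. The limma log2 fold change was 0.67 ± 0.70 with a Benjamini-Hochberg adjusted p of 0.517, and scaling to total recovered reads put the log2 ratio at -0.0068. It was called by neither test.

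The constitutive beta ring subunits had the highest median log2 ratio of the subcomplexes, 2.78 over 6 placed genes, and the order of the subcomplexes was not tested. By the authors' deposited table, 5 of 7 were called higher, and limma called all 7. Psmb2, a non-catalytic beta subunit, had 14.2 and 31.5 normalized reads in bone marrow and 297 and 584 in fetal liver. This was the highest ratio of all placed subunits, with a fold of 19.3 and an adjusted p of 0.000299 by the authors' deposited table and a limma log2 fold change of 4.23 ± 0.47. Without the shallower bone marrow library the fold was 31.03, and without the shallower fetal liver library 13.0. At 513 normalized reads per kb in fetal liver, Psmb2 also had the highest level per length, from 26.6 in bone marrow.

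Psmb5 carries the chymotrypsin-like site and is the target of proteasome inhibitors used in myeloma. It had 1.35 and 14.3 normalized reads in bone marrow, from 2 and 5 reads, and 79.6 and 57.1 in fetal liver, from 210 and 48 reads. Both fetal liver libraries were above both bone marrow libraries, but the bone marrow libraries were far apart. The authors' deposited table gave a fold of 8.73 and an adjusted p of 0.293, and limma with Benjamini-Hochberg adjustment called it higher (3.51 ± 0.72, adjusted p 0.0023). With the deeper bone marrow library left out the fold was 4.78, and with the shallower one left out 50.6.

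Psmb7, which carries the trypsin-like site, was called higher, from 12.2 and 20.02 normalized reads to 117 and 125, with a fold of 7.51 in the authors' deposited table. Psmb6, with the caspase-like site, had 2 candidate features, both 4.99 to 5.37-fold higher in fetal liver with an adjusted p of 0.0558 by the authors' deposited table. The structural subunits Psmb1 (15.5 and 45.7 in bone marrow, 216 and 200 in fetal liver), Psmb3 (14.2 and 40.03, 167 and 145) and Psmb4 (12.2 and 31.5, 137 and 136) were called, with folds of 6.78, 5.76 and 6.24 in the authors' deposited table. The fetal liver libraries of these 3 genes lay closer together than their bone marrow libraries.

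In all 14 placed alpha and constitutive beta subunits the shallower bone marrow library was above the deeper one, against 53.8% of all features at this minimum mean of 10 and against 11 of the 20 placed subunits outside this core. The difference between the bone marrow libraries took part in the placement, so these counts are a description only. The stromal collagen gene Col1a2, named after its values were seen, was also higher in the shallower bone marrow library, at 336 and 4186 normalized reads. Leaving out 1 bone marrow library moved the fold by over 1.5 times in 11 of the 34 placed subunits. Beside those given with their gene, folds without the shallower library were 12.3 for Psma2, 8.06 for Psma5, 13.4 for Psmb1, 11.01 for Psmb3 and 11.2 for Psmb4.

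The inducible and tissue-restricted beta subunits were not called in either direction in the authors' deposited table. Psmb8, the inducible counterpart of Psmb5, had 16.9 and 8.58 normalized reads in bone marrow, from 25 and 3 reads, and 1.52 and 3.57 in fetal liver, from 4 and 3 reads. The groups did not overlap, and the fold was 0.200 with an adjusted p of 0.406 by the authors' deposited table (unadjusted p 0.0419). Its mean was under 10, so it was not in the limma fit. The log2 ratio of Psmb8 to Psmb5 within a library was 2.93 and -0.68 in bone marrow and -5.001 and -3.67 in fetal liver, a difference of -5.46. An exact two-sided permutation test of 2 libraries against 2 gave p = 0.333, the smallest p it can give. With so few reads the size is uncertain: leaving out 1 library gave -7.26 to -3.66.

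Psmb10, the counterpart of Psmb7, had 7 candidate features with folds from 0.543 to 1.87 and an adjusted p of 1 by the authors' deposited table, so its direction is not known. Psmb11, which belongs to the proteasome of thymic epithelium, had 2 candidates with folds of 0.292 and 0.350 and adjusted p 0.655 by the authors' deposited table. Limma with Benjamini-Hochberg adjustment gave -1.44 ± 0.49 (adjusted p 0.0469) for the more probable candidate, at a posterior of 0.825, and -1.89 ± 1.07 (adjusted p 0.219) for the other. Of 11 genes of antigen processing and interferon signalling, 0 were called in either direction in the authors' deposited table. Among features with a mean of at least 10, 8.86% were called higher and 0.224% lower. Limma called B2m, the light chain of MHC class I, higher and the interferon regulator Irf8 lower. The share it called higher was 9.09% of the list, against 19.2% of the features it fitted. The peptide transporter genes Tap1 (20.9 and 25.7 normalized reads in bone marrow, 9.47 and 15.5 in fetal liver) and Tap2 (20.3 and 14.3, 14.02 and 5.95) were called by neither test, nor was the MHC class I assembly factor Tapbp (17.6 and 22.9, 17.8 and 22.6). Neutrophil marker levels were also lower in fetal liver, as given above, and their part in the Psmb8 values was not tested.

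**Figure D3:**
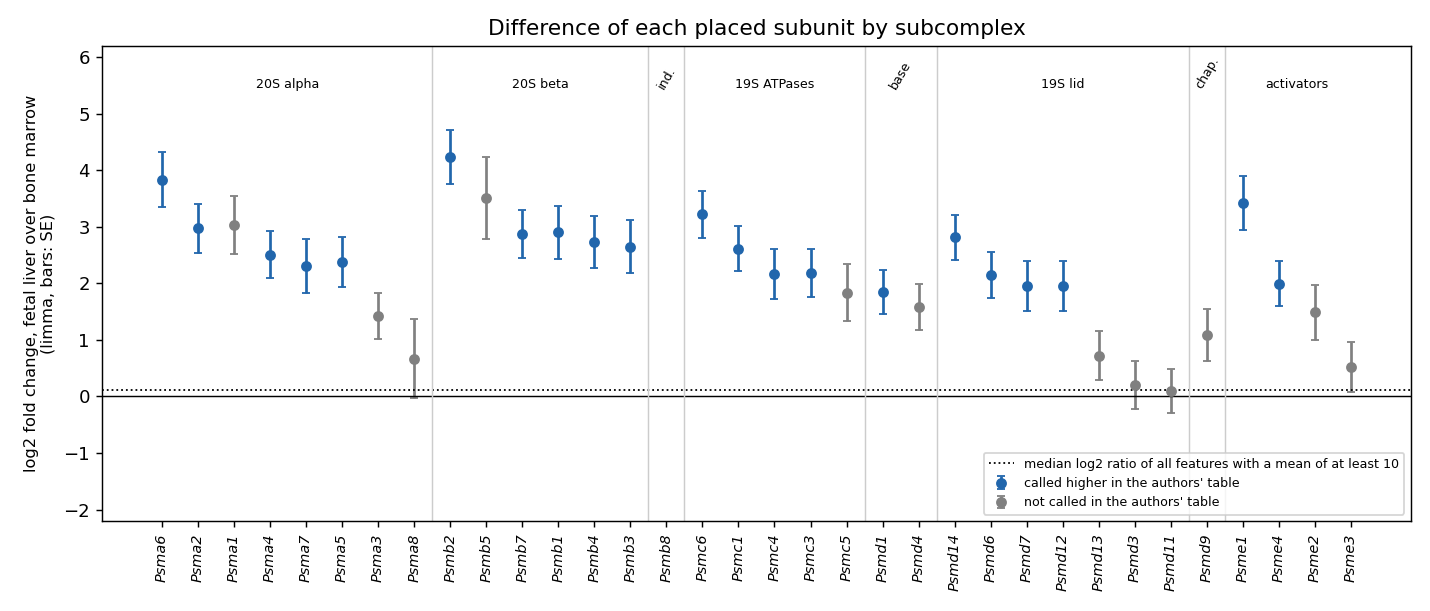
Limma log2 fold change (fetal liver over bone marrow) of each placed subunit by subcomplex, with standard errors as bars; blue points were called higher in the authors' deposited table and the dotted line is the median log2 ratio of all features with a mean of at least 10, at 0.11. Psmb8 has no point because its mean was under the minimum of the fit. The core subunits Psmb2 and Psma6 are highest, and Psmd3 and Psmd11 lie near the dotted line.

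The ATPases of the 19S base, which form the ring that unfolds and threads substrates, were all called higher by limma (6 of 6), and 5 of 6 in the authors' deposited table. Their median log2 ratio was 2.17. Psmc6 had 36.5 and 42.9 normalized reads in bone marrow and 351 and 404 in fetal liver, with each pair of libraries close together. Its fold of 9.51 came with an adjusted p of 6.76e-07 by the authors' deposited table, the lowest of the subunits, and the limma log2 fold change was 3.22 ± 0.41. With 1 library left out its fold ran from 8.80 to 10.3 on this feature. The model blind to direction placed Psmc6 on another feature, and with labels as they stand its log2 ratio was 4.98.

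Psmc1 rose from 20.9 and 22.9 normalized reads in bone marrow to 152 and 127 in fetal liver, 6.38-fold by the authors' deposited table. Psmc3 (22.3 and 40.03 in bone marrow, 113 and 171 in fetal liver) and Psmc4 (17.6 and 31.5, 146 and 82.0) were called with folds of 4.55 and 4.64 in the authors' deposited table. Psmc2 had 2 candidate features with folds of 3.52 and 4.39 and an adjusted p of 0.0115 by the authors' deposited table. Psmc5 was the exception, at 12.8 and 40.03 in bone marrow and 107 and 65.4 in fetal liver. It had a fold of 3.27 and an adjusted p of 0.260 by the authors' deposited table and was called by limma with Benjamini-Hochberg adjustment (1.83 ± 0.50, adjusted p 0.0158). Its fold was 6.72 without the shallower bone marrow library and 2.16 without the deeper one.

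The remaining 19S subunits spread more widely. Of the 11 in the base and lid, 6 were called higher in the authors' deposited table and 8 by limma, with a median log2 ratio of 1.86 over 9 placed genes. Psmd14, the deubiquitinase of the lid, had 18.2 and 14.3 normalized reads in bone marrow and 121 and 119 in fetal liver. It was the highest of the placed Psmd genes by ratio, with a fold of 7.36 and an adjusted p of 0.00172 by the authors' deposited table and a limma log2 fold change of 2.81 ± 0.40. Psmd7, which pairs with Psmd14 in the lid, rose from 18.2 and 34.3 to 77.3 and 130, and with an adjusted p of 0.04996 by the authors' deposited table it was the last subunit inside the threshold. Without the shallower fetal liver library it was not called by limma.

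Psmd6, a lid subunit, rose 4.45-fold in the authors' deposited table, from 45.9 and 31.5 normalized reads to 163 and 182. Psmd12 of the lid and the base scaffold Psmd1 were called as well, with folds of 3.88 and 3.67 in the authors' deposited table. Psmd8 of the lid had 2 candidates, both called, with folds of 5.304 and 5.64 in the authors' deposited table. The ubiquitin receptor Psmd4 (22.3 and 25.7 in bone marrow, 68.2 and 79.7 in fetal liver) was called by limma with Benjamini-Hochberg adjustment (1.58 ± 0.41, adjusted p 0.0105). It was not called in the authors' deposited table, where its fold was 3.08 and its adjusted p 0.229. Psmd2, the other large base subunit, had 2 candidates with folds of 2.38 and 4.46 and an adjusted p of 0.118 by the authors' deposited table.

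The other 3 lid subunits were called by neither test. Psmd11, which sits between lid, ATPases and core, had 67.6 and 80.1 normalized reads in bone marrow and 78.4 and 78.5 in fetal liver, so the groups overlapped. Its limma log2 fold change was 0.09 ± 0.39 (Benjamini-Hochberg adjusted p 0.887), and the log2 ratio was -0.62 with scaling to total recovered reads. Psmd3 stood at 29.1 and 34.3 in bone marrow and 37.5 and 35.7 in fetal liver, with 0.21 ± 0.43 in limma (Benjamini-Hochberg adjusted p 0.761) and -0.49 with scaling to total reads. Psmd13 stood at 23.6 and 25.7 against 37.9 and 45.2, with 0.72 ± 0.43 (limma, Benjamini-Hochberg adjusted p 0.245). In bone marrow, Psmd11 was therefore among the higher subunits per length (25.9 normalized reads per kb, against a median of 16.9), and in fetal liver it was below the median of 76.8, at 27.5.

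**Figure D4:**
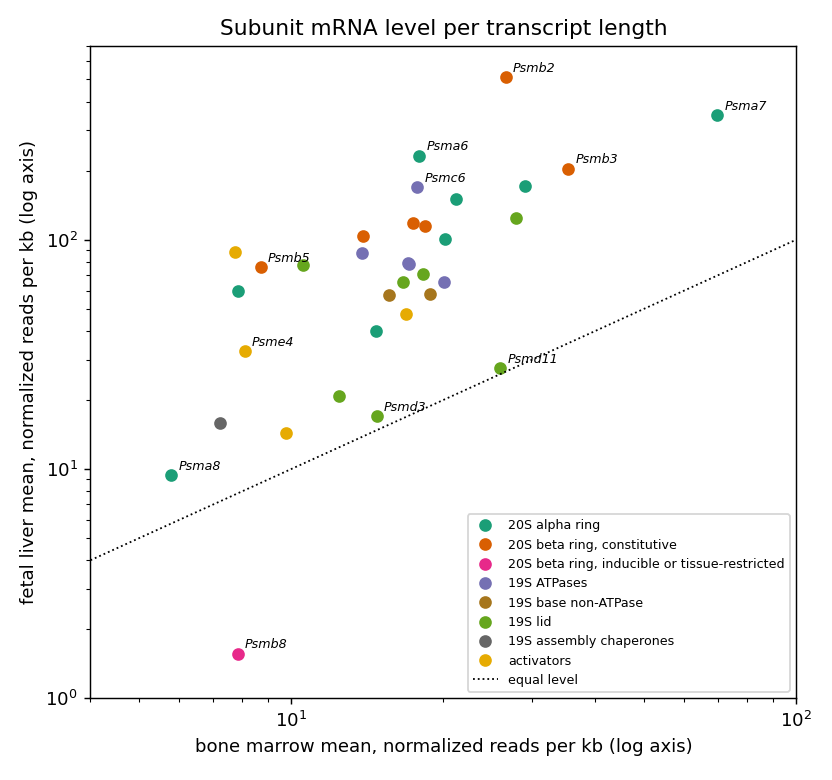
Mean level of the 34 placed subunits in normalized reads per kb of transcript, bone marrow (x, log axis) against fetal liver (y, log axis), coloured by subcomplex; the dotted line marks equal levels. Most subunits lie above the line, Psmd11 and Psmd3 lie close to it, and Psmb8 lies below it.

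Chaperones of 19S assembly that carry Psmd names differed among themselves. Psmd10 (gankyrin) had 2 candidates, both called, with folds of 5.95 and 10.9 and an adjusted p of 0.00607 by the authors' deposited table. Psmd5 had 2 candidates with folds of 2.79 and 3.65 and an adjusted p of 0.0808 by the authors' deposited table. Psmd9 stood at 20.3 and 17.2 normalized reads in bone marrow and 47.0 and 35.7 in fetal liver, without overlap, and limma with Benjamini-Hochberg adjustment did not call it (1.09 ± 0.46, adjusted p 0.101).

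Among the activators, Psme1 and Psme4 were called higher in the authors' deposited table, and limma also called Psme2. Psme1 and Psme2 together form the PA28 ring that opens the core and, like the immunoproteasome, are induced by interferon gamma. Psme1 had 11.5 and 5.72 normalized reads in bone marrow and 83.0 and 113 in fetal liver, a fold of 11.4 with an adjusted p of 0.000991 by the authors' deposited table. The shallower bone marrow library held 2 reads of it, and without the deeper one the fold was 17.1. Its partner Psme2 had 20.9 and 11.4 in bone marrow and 40.2 and 51.1 in fetal liver, a fold of 2.82 with an adjusted p of 0.774 by the authors' deposited table. Limma with Benjamini-Hochberg adjustment gave 1.49 ± 0.49 for Psme2 (adjusted p 0.038), and the bone marrow libraries of both genes kept the same order, the deeper above the shallower.

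The log2 ratio of Psme1 to Psme2 within a library was -0.81 and -0.89 in bone marrow and 1.03 and 1.13 in fetal liver. The difference between the groups was 1.93, and the ratio of the shallower bone marrow library rests on 2 reads of Psme1 and 4 of Psme2. Psme1 was placed at a posterior of 0.952, while the model blind to direction gave that feature 1.86e-07 and kept Psme2 in place at 0.999. This pair was compared after its values were seen, and the exact two-sided permutation test gave p = 0.333, the smallest p it can give. Psme4, a large activator of its own (PA200), had 53.4 and 51.5 normalized reads in bone marrow and 202 and 221 in fetal liver, a fold of 4.04 with an adjusted p of 0.0130 by the authors' deposited table. Psme3, the nuclear PA28 gamma, was called by neither test, at 26.3 and 25.7 against 44.7 and 32.1, and its log2 ratio was -0.15 with scaling to total recovered reads.

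Of 14 genes for proteasome assembly and associated proteins, 4 were called higher and 0 lower in the authors' deposited table, and limma called 6 higher. The higher calls were 28.6% and 42.9% of the list, against 8.86% and 19.2% of features with a mean of at least 10. Pomp, the chaperone of beta ring assembly, rose from 12.8 and 25.7 normalized reads to 167 and 90.4. The 19S-bound deubiquitinase Usp14 rose from 33.1 and 60.05 to 198 and 202. The proteasome-bound thioredoxin Txnl1 rose from 15.5 and 14.3 to 118 and 112, and Akirin2, which takes part in nuclear import of proteasomes, from 18.9 and 11.4 to 117 and 98.7. In the authors' deposited table their folds were 6.69, 4.29, 7.70 and 7.11. The alpha ring assembly chaperones Psmg1, Psmg2, Psmg3 and Psmg4 were not called, with folds of 2.94, 1.97, 2.80 and 5.22 in the authors' deposited table. Shfm1, a small lid component named here after its values were seen, had 3.38 and 20.02 in bone marrow and 151 and 287 in fetal liver, with an adjusted p of 0.0581 by the authors' deposited table, and was called by limma.

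Of 12 genes of the NFE2L1 pathway and p97, 1 was called higher in the authors' deposited table and 4 by limma, with 0 lower by either. The limma count was 33.3% of the list, against 19.2% of the features limma fitted. The count in the authors' deposited table, 8.33% of the list, is near the 8.86% of all features with a mean of at least 10. Ufd1l, a cofactor of p97, rose from 15.5 and 25.7 to 72.8 and 96.3 normalized reads. Nfe2l1 itself stood at 35.8 and 20.02 in bone marrow and 64.8 and 55.9 in fetal liver and was not called. Ddi2, the protease that cleaves NFE2L1, was lower in both fetal liver libraries, at 52.0 and 62.9 against 22.4 and 30.9, and was not called by either test. The related factor Nfe2l2 (25.0 and 22.9, 83.0 and 79.7) was called by limma only, and Ngly1, which removes N-glycans from NFE2L1, by neither (33.1 and 25.7, 45.5 and 46.4).

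Of 12 genes for ubiquitin, its activating enzymes and shuttle receptors, 2 were called higher in the authors' deposited table and 7 by limma, with 0 lower by either. The higher calls were 16.7% and 58.3% of the list, against 8.86% and 19.2% of features with a mean of at least 10. Rps27a, a ubiquitin fusion gene, rose from 15.5 and 25.7 to 75.0 and 88.0 normalized reads, and the shuttle receptor Ubqln2 from 17.6 and 22.9 to 124 and 159. The polyubiquitin gene Ubb had 30.4 and 249 in bone marrow and 1590 and 1283 in fetal liver, with an adjusted p of 0.229 by the authors' deposited table. The bone marrow libraries of Ubb were far apart, the shallower one being higher. The activating enzyme gene Uba1 (8.78 and 45.7, 160 and 227) was also called by limma and not in the authors' deposited table.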

How the data were processed

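RNA-seq of 4 libraries was compared, grouped by the sample titles. The deposited table gives, per the file headers, each group's mean as a size-factor-scaled read signal, the authors' fold (a ratio of the means) and the authors' p-value and adjusted p-value. The submitters' processing notes list GSNAP, HTSeq, DESeq and mm9 and no version. The sources used here give neither annotation, filters nor strand use, so genes that overlap or have near-identical copies, such as processed pseudogenes, are uncertain. The subunits and other lists were chosen with earlier results of these data known.

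The table holds 37996 features sorted by p-value, of which 4531 have no label, while its 33465 labels fill the first rows without gaps. Of 9971 adjacent labels beside equal p-values, 72.3% stood in ascending identifier order, and 4 subunits stood beside a fetal liver mean of 0. Labels were placed again by a hidden Markov model that kept their order. It took identifiers to ascend within equal p-values, an assumption no source used here states, with an error rate of 0.001. It added a score of gene structure against level and library differences (LightGBM 4.6.0, 5 folds, bounded at 4, with GENCODE M21 and RefSeq promoters). A gene's value is printed where its posterior was at least 0.95, which held for 62.7% of 31933 labels of tested features. On simulated labels 99.6% of placed labels of called features were right, an upper estimate because the simulation used the placement itself.

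Each group mean was split into whole reads of its 2 libraries, given what 1 read is worth (0.676 and 2.86 in bone marrow, 0.379 and 1.19 in fetal liver). Means up to 10000 gave a single solution in 34525 of 34525 bone marrow and 31919 of 31921 fetal liver features. Wrong steps, tried on a subset of means under 1000, gave a solution for 0% of 3452 and 0% of 3187. The recovery was also tested on simulated means. The shallower bone marrow library limits the precision for low genes most.

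Calls are the authors' adjusted p under 0.05. Limma 3.58.1 (R 4.3.3, mean-variance trend) was fitted on log2(normalized reads + 1) for features whose mean reached 10, adjusted by Benjamini-Hochberg, and was tested on simulated data. Levels per kb use the transcript with the longest coding sequence in GENCODE M21. Named genes are all core, ATPase and activator subunits, and of the other 19S subunits the 3 highest, the 3 lowest and those not called. Of other lists they are each placed gene that was called and up to 4 that were not, in list order, except for some that are not reported here. Other pseudocounts, scalings, filters, label placements and left-out libraries were tried.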

Additional observations from a re-analysis of the deposited data

How the results depend on the processing

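Across all settings tried, 20 to 33 of the 42 subunits were called higher in fetal liver. The lowest counts came from placing labels by identifier order alone (20) and by the model blind to direction (23), both added after seeing the data. Those settings placed 2 and 13 subunits, mostly not called ones, with median log2 ratios of 0.69 and 1.10. The authors' adjusted p called 1467 features higher and 46 lower. Limma called 3172 higher and 474 lower, 2696 and 293 with no minimum mean, 2218 and 87 with a minimum mean of 50, and 2254 to 3413 and 196 to 687 with 1 library left out. Adjustment over the features whose mean reached 10 gave 83 lower, and limma with scaling to total recovered reads, added after seeing the data, gave 3110 lower and 1814 higher, with 27 subunits higher. Total scaling gave median log2 ratios of 1.48 for all subunits, 1.71 for the alpha ring, 2.10 for the constitutive beta ring, 1.4997 for the ATPases, 1.14 for the other 19S subunits and 1.002 for the activators, each shifted with the median of all features. With 1 library left out these medians were 1.92 to 2.64 (all), 2.17 to 3.52 (beta), 1.82 to 2.66 (ATPases) and 1.52 to 1.86 (other 19S). A posterior of 0.99 gave 1.44 for the activators, since fewer are placed. The Psmb8 to Psmb5 difference was -3.06 with a pseudocount of 10, 3.14 with labels as they stand, and -7.26 to -3.66 with 1 library left out. Labels as they stand turned the log2 ratio of Psma3 (-3.46), Psmc5 (-2.97), Psmb5 (-2.03), Psmb8 (1.25), Psmd9 (-0.96), Psmd13 (-1.60), Psme3 (-0.97), Psma8 (-0.49) and Psmd3 (-0.022), because the values then belong to other features. Total scaling turned Psme3 (-0.15), Psma8 (-0.0068), Psmd3 (-0.49) and Psmd11 (-0.62). Psmd11 also turned when centred on the median of all features (-0.021) and without the deeper bone marrow library, its range with 1 library left out being -0.029 to 0.213. Among placed subunits, Psmd7 and Psmd4 lost their limma call without the shallower fetal liver library, at log2 fold changes of 1.59 and 1.47. Psma3 lost it without the deeper fetal liver library (1.24), and Psmc5 without the deeper bone marrow (1.05) or deeper fetal liver library (1.48). Psme2 lost it without the shallower bone marrow library (1.08), the deeper fetal liver library (1.66) or the shallower one (1.32). Of placed subunits called by either test, Psma3, Psmc5 and Psmb5 turned with labels as they stand. No setting that kept the main placement turned a called subunit. By identifier order alone, the posterior of a higher fetal liver mean was 0.417 for Psmd4 and 0.358 for Psmc5, which limma called higher. The causes were not tested beyond this. A library left alone in its group is assumed to vary like the others. No paired analysis was possible because the groups share only the replicate number 2. Depth limits Psmb5, Psmb8, Psme1 and Psme2 in particular, which rest on 2 to 31 reads in the bone marrow libraries.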
